A study of Rattus norvegicus with 11 samples.

Results

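The genes described here are 10 genes of the YAP pathway: Yap1, Wwtr1, Tead1, Lats2, Amotl2, Ccn1, Ccn2, Ankrd1, Ajuba and Axin2. They were given as a list of gene names and were found by their symbols among the 30560 genes of the deposited matrix, which holds 1 row for each. RNA of the striatum was sequenced on day 3 in 11 adult male Sprague-Dawley rats, with 1 library per rat. In the IC group, the model of common intracerebral hemorrhage, 3 rats (replicates 2, 3 and 4) received 0.2 U of collagenase VII-S in 1.0 μL of saline in the right striatum. The IS group, the severe model, held 3 rats (replicates 2, 3 and 4) that received 0.6 U in 3.0 μL. The IS-HA group held 3 rats (replicates 1, 2 and 3) given the severe dose, from which 150 μL of hematoma, about 75% of its volume, was aspirated after 6 h. The Normal group held 2 rats (replicates 1 and 3) with neither collagenase nor aspiration. No group received the needle and saline alone, so the hemorrhage and the injection cannot be told apart in any comparison with Normal. IC against Normal and IS against Normal ask what each hemorrhage changed, IS against IC what the larger one added, and IS-HA against IS what aspiration changed. Hematoma size in IS against IC cannot be told apart from the larger collagenase dose and volume. Aspirated rats were also anesthetized again and received a catheter, and no sham aspiration is described, so removal of blood cannot be told apart from these.

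YAP, encoded by Yap1, and TAZ, encoded by Wwtr1, are transcriptional coactivators with no DNA-binding domain of their own. They bind TEAD factors and switch on genes such as Ccn1, Ccn2 and Ankrd1. The kinases of the Hippo cascade phosphorylate both proteins and thereby hold them in the cytoplasm. That control acts on protein and is not seen in mRNA levels of Yap1 and Wwtr1 themselves. In the adult brain the pathway is known mainly from astrocytes and the cells of blood vessels. Axin2 is a target and feedback inhibitor of Wnt/β-catenin signaling, which meets the Hippo pathway at the β-catenin destruction complex.

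The sequence upstream of the start site was read from RefSeq for 7 of the 10 genes (build GRCr8), and Tead1, Lats2 and Ankrd1 had no entry. The 250 bases before each start were searched on both strands for the core TEAD motif GGAATG, which reads CATTCC on the opposite strand, and for a TCF/LEF motif, CTTTGAT, which reads ATCAAAG there. No match of one motif overlapped a match of the other in these 7 genes. The TEAD motif was found in 5 of the 7, Yap1, Amotl2, Ccn1, Ccn2 and Ajuba, and in 12.1% of all 33469 promoters searched in the same way. The TCF/LEF motif was found in Axin2 and Amotl2, and in 3.15% of all promoters. The following stretches are shown because Ccn1 and Axin2 passed the test against Normal (Wwtr1, which also did, holds neither motif), Ccn2 is the close relative of Ccn1, Amotl2 holds both motifs, and Yap1 is the coactivator itself. The motif is in capitals and each stretch is written on the strand of its gene.
Yap1 (chr8:13451528-13451573, minus strand): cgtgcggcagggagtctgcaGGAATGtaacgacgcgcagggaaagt
Ccn1 (chr2:237225777-237225822, minus strand): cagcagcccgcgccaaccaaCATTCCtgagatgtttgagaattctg
Ccn2 (chr1:22624681-22624800, minus strand): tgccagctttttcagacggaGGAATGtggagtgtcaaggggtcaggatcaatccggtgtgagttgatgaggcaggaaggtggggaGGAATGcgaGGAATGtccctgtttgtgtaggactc
Amotl2 (chr8:112182530-112182575, plus strand): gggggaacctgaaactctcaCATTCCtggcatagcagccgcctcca
Axin2 (chr10:94398633-94398679, plus strand): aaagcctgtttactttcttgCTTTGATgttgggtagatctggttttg
Ccn2 held 3 copies of the TEAD motif, beginning 166, 101 and 92 bases before its start, and Ccn1 held 1, beginning 113 bases before its start. The motif began 116 bases before the start of Yap1 and 76 bases before that of Amotl2. The TCF/LEF motif began 132 bases before the start of Axin2. That of Amotl2 began 108 bases before its start, upstream of the stretch shown, which holds the TEAD motif alone. The window of Wwtr1 held neither set of letters. A match describes the letters only, and binding was not measured here.

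Reads were counted per gene by the authors, and a library held 6701301 to 18817645 counts. Levels are given as the authors' TPM (transcript abundance per length), which divides by gene length and scales each rat to the same sum. Differences are log2 fold changes from edgeR's quasi-likelihood test on the counts, fitted over all 11 rats, with their SE. A gene is said to have risen or fallen where its Benjamini-Hochberg adjusted p over the 15742 genes tested was under 0.05 and its absolute log2 fold change was at least 1. Of the 10 genes, 9 passed the filter on low counts and were tested, and Ankrd1 did not. The defining striatal neuron gene Ppp1r1b was present in every rat, at 447 to 2290 TPM. IS-HA replicate 2 stood apart from the other IS-HA rats. It had the smallest library of the 11, the highest summed level of the neutrophil markers (855 TPM, against 160 and 214 TPM in IS-HA replicates 1 and 3), and the lowest level of the 9 rats with hemorrhage in 7 of the 10 genes. Results that rest on it are therefore given with and without it. Its low levels of these same genes were part of the reason, so the values without it are not an independent check.

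Against Normal, Wwtr1 and Ccn1 rose in all 3 hemorrhage groups, and Axin2 fell in IS and in IS-HA. The 3 calls in IS-HA were each lost under some alternatives, given below. In IC, 2 of the 9 tested genes rose and 0 fell by edgeR's test, where 10.9% of all genes tested rose and 2.66% fell. At an unadjusted p under 0.05 none of the 9 was lower in IC by edgeR's test. DESeq2 and limma called 0 lower past both cutoffs. Over the alternatives that kept every rat, the lowest adjusted p in IC was 0.0118 for Ccn2 and 0.0374 for Axin2. Their log2 fold changes there, -0.72 to -0.55 and -0.60 to -0.43, were short of the fold cutoff. In IS, 2 rose and 1 fell, with 18.8% and 17.0% of all genes tested. In IS-HA, 2 rose and 1 fell, with 15.1% and 7.71%. With 9 genes, these counts are not read as a property of the list. The 3 comparisons share the same 2 Normal rats and are therefore not independent of each other. Where rats are said below to lie above or below both Normal rats, this is a description. The share of all genes tested that separate from 2 Normal rats in this way was not counted. Between the hemorrhage groups, 0 of the 9 genes passed both cutoffs, and the values are given below for each gene.

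**Figure D1:**
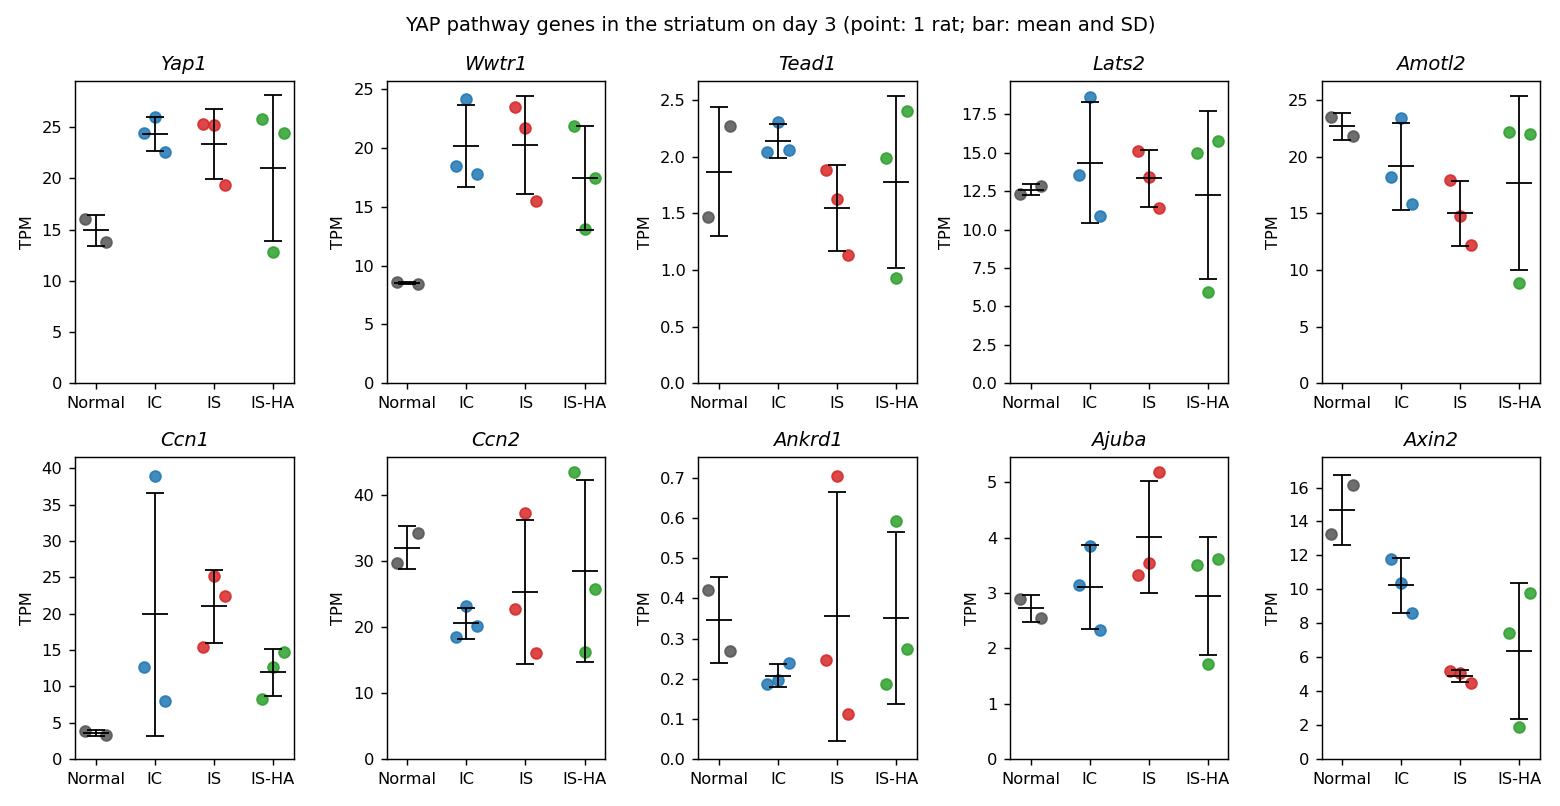
TPM (y axis, from 0, a scale of its own for each gene) of the 10 genes in each of the 11 rats, by group (x axis). Points are rats, and the black marks are the group mean and SD. Both Normal rats lie below all 9 rats with hemorrhage for Wwtr1 and Ccn1 and above all 9 for Axin2, and the lowest IS-HA point for Yap1, Lats2 and Axin2 is replicate 2.

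Wwtr1, which encodes TAZ, had the smallest adjusted p of the 9 tested genes in each comparison with Normal. Its level was 8.58 and 8.43 TPM in Normal replicates 1 and 3. It was 18.5, 24.1 and 17.8 TPM in IC replicates 2, 3 and 4. It was 23.5, 21.7 and 15.5 TPM in IS replicates 2, 3 and 4, and 21.9, 13.1 and 17.4 TPM in IS-HA replicates 1, 2 and 3. Every rat with hemorrhage was above both Normal rats, and the 3 hemorrhage groups overlapped. The log2 fold change against Normal was 1.18 (SE 0.21) in IC, a 2.27-fold difference (adjusted p = 0.00302). In IS it was 1.25 (SE 0.21, adjusted p = 0.000894). In IS-HA it was 1.00 (SE 0.21, adjusted p = 0.00504), which sits on the fold cutoff, and DESeq2's size factors placed it at 0.97, under that cutoff, with an adjusted p of 0.00547. Without Normal replicate 3 the adjusted p of Wwtr1 was 0.0557 in IC and 0.0662 in IS-HA. The value of Wwtr1 in IS-HA was also under the fold cutoff without IS replicate 3 (0.98) or IS-HA replicate 1 (0.87), and it was 1.07 without IS-HA replicate 2. In this bulk tissue, more cells of a type and more RNA per cell cannot be told apart, for Wwtr1 and for every gene that follows.

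Yap1, which encodes YAP, was also higher in IC and IS, but by less than the fold cutoff. It was at 16.0 and 13.8 TPM in the Normal rats, at 24.4, 26.0 and 22.6 TPM in IC, and at 25.3, 25.2 and 19.4 TPM in IS replicates 2, 3 and 4. In IS-HA it was at 25.8, 12.8 and 24.5 TPM in replicates 1, 2 and 3. All IC and IS rats were above both Normal rats, whereas IS-HA replicate 2 was below them. The log2 fold change was 0.64 (SE 0.21, adjusted p = 0.0578) in IC, 0.65 (SE 0.21, adjusted p = 0.026) in IS and 0.44 (SE 0.21, adjusted p = 0.127) in IS-HA. Yap1 in IS thus passed the p threshold and missed the fold cutoff, and without Normal replicate 3 its adjusted p was 0.211. Without IS-HA replicate 2, the value of Yap1 in IS-HA was 0.61 (adjusted p = 0.017), and its adjusted p in IC, where the fit shares the spread of all groups, was 0.00881. In TPM, Yap1 was 1.87 and 1.64 times the level of Wwtr1 in the Normal rats, and this ratio was 0.979 to 1.40 in the 9 rats with hemorrhage. The ratio was chosen after the values were seen and is a description.

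No difference between hemorrhage groups passed the test for either coactivator gene. IS against IC gave a log2 fold change of 0.01 (SE 0.19, adjusted p = 0.985) for Yap1 and 0.07 (SE 0.18, adjusted p = 0.809) for Wwtr1. IS-HA against IS gave -0.21 (SE 0.19, adjusted p = 0.721) for Yap1 and -0.25 (SE 0.18, adjusted p = 0.658) for Wwtr1. Without IS-HA replicate 2 these were -0.04 and -0.18.

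Tead1, a DNA-binding partner of both coactivators, was low in this tissue, with 11 to 66 counts. It was at 1.47 and 2.27 TPM in Normal, at 2.04, 2.31 and 2.06 TPM in IC, at 1.88, 1.62 and 1.13 TPM in IS, and at 1.99, 0.93 and 2.40 TPM in IS-HA. The IS rats were all below the IC rats, with a log2 fold change of -0.40 (SE 0.31, adjusted p = 0.441). The Normal rats lay on both sides of the gap between IS and IC. In RefSeq the gene overlaps LOC120099907, which is listed in the matrix with no reads in any rat, and LOC120099908, which is not listed under that symbol. Against Normal, its values were 0.15 in IC, -0.25 in IS and -0.10 in IS-HA, with SEs of 0.338 to 0.345.

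Lats2 and Amotl2, the members of the list that hold YAP and TAZ back, gave no called difference. Lats2, the kinase that phosphorylates YAP and TAZ, was at 12.3 and 12.8 TPM in Normal, at 13.5, 18.6 and 10.9 TPM in IC, at 15.1, 13.4 and 11.4 TPM in IS, and at 15.0, 5.93 and 15.8 TPM in IS-HA. Its groups overlapped in all 5 comparisons, and its log2 fold changes lay between -0.19 and 0.12. Amotl2, a junctional protein that binds YAP and keeps it from the nucleus, was at 23.5 and 21.8 TPM in Normal, at 18.2, 23.4 and 15.8 TPM in IC, at 18.0, 14.8 and 12.2 TPM in IS, and at 22.2, 8.85 and 22.1 TPM in IS-HA. All IS rats were below both Normal rats, with a log2 fold change of -0.59 (SE 0.27, adjusted p = 0.0867), which did not pass. In IS-HA, replicates 1 and 3 lay within the range of the Normal rats in TPM and replicate 2 was below it, but in CPM after TMM normalization all 3 were below both Normal rats. The log2 fold change against Normal was -0.42 with all 3 rats and -0.18 without replicate 2.

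Ajuba encodes a LIM protein that binds LATS kinases and limits their activity. Its level was 2.90 and 2.55 TPM in Normal, 3.14, 3.85 and 2.32 TPM in IC, 3.33, 3.53 and 5.18 TPM in IS, and 3.50, 1.72 and 3.62 TPM in IS-HA. All IS rats were above both Normal rats, but the difference did not pass the test (log2 fold change 0.57, SE 0.34, adjusted p = 0.177). Ajuba had 19 to 103 counts per rat, so the precision of its value is limited by depth as well as by the number of rats.

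Of the target genes, Ccn1 had the largest fold increase of the 9 tested genes in each hemorrhage group. Ccn1 encodes a secreted matricellular protein and is among the genes most used as a readout of YAP and TAZ, but many other signals induce it. It was at 3.90 and 3.29 TPM in the Normal rats and at 12.7, 39.0 and 7.99 TPM in IC. It was at 15.5, 25.1 and 22.4 TPM in IS and at 8.30, 12.7 and 14.8 TPM in IS-HA. Every rat with hemorrhage was above both Normal rats, the IC rats spread most widely, and the lowest IS rat was above the highest IS-HA rat. The log2 fold change against Normal was 2.37 (SE 0.60, adjusted p = 0.0213) in IC, 2.56 (SE 0.61, adjusted p = 0.00587) in IS and 1.71 (SE 0.59, adjusted p = 0.0477) in IS-HA.

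The size of the Ccn1 increase in IC depended on IC replicate 3, without which it was 1.49 (adjusted p = 0.0484). Without Normal replicate 3 the adjusted p of Ccn1 was 0.187 in IC, 0.0612 in IS and 0.247 in IS-HA, and without Normal replicate 1 it was 0.0936 in IC, 0.0324 in IS and 0.13 in IS-HA. The IS-HA call also missed the threshold without any one of IC replicate 2, IS replicate 2, 3 or 4, or IS-HA replicate 2 or 3, with log2 fold changes of 1.52 to 1.71 and adjusted p of 0.0513 to 0.0961. The difference of Ccn1 between IS and IC did not pass (log2 fold change 0.19, SE 0.48, adjusted p = 0.813). In IS-HA against IS its log2 fold change was -0.85 (SE 0.49, adjusted p = 0.594). The IS and IS-HA rats did not overlap in TPM, but they did in CPM after TMM normalization, so the separation depends on the scale. Without IS-HA replicate 2 the value was -1.04 (adjusted p = 0.225).

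Ccn2, the close relative of Ccn1 and a classical TEAD target with the 3 motif copies shown above, had no called difference. It was at 29.7 and 34.2 TPM in Normal, at 18.4, 23.1 and 20.1 TPM in IC, at 22.6, 37.2 and 16.0 TPM in IS, and at 43.4, 16.1 and 25.8 TPM in IS-HA. All IC rats were below both Normal rats, and the IS and IS-HA rats lay on both sides of them. The log2 fold change was -0.69 (SE 0.35, adjusted p = 0.182) in IC, -0.32 (SE 0.35, adjusted p = 0.463) in IS and -0.21 (SE 0.35, adjusted p = 0.654) in IS-HA. Over the alternatives that kept every rat, the adjusted p in IC ranged from 0.0118 to 0.32, always short of the fold cutoff. The level of Ccn1 was 0.131 and 0.0961 of that of Ccn2 in the Normal rats, and 0.191 to 1.69 of it in the 9 rats with hemorrhage. This ratio, too, was chosen after the values were seen and was not tested.

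Ankrd1, a cardiac and muscle ankyrin repeat gene often used as a YAP readout, was close to the detection limit. It had 1 to 9 counts per rat, or 0.113 to 0.705 TPM, where 3 counts correspond to 0.159 to 0.448 CPM (counts scaled to library size). The groups overlapped except that the 3 IC rats (0.186 to 0.24 TPM) were below both Normal rats (0.269 and 0.421 TPM), a difference of a few reads. In a fit with no filter on counts, over 21867 genes, its adjusted p was between 0.569 and 1. A difference was not detectable at this depth.

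Axin2 changed in the opposite direction. It was at 13.2 and 16.1 TPM in the Normal rats and at 11.8, 10.4 and 8.58 TPM in IC. It was at 5.16, 5.04 and 4.50 TPM in IS and at 7.40, 1.91 and 9.76 TPM in IS-HA. All 9 rats with hemorrhage were below both Normal rats, the 3 IS rats lay close together below all IC rats, and IS-HA spread from below IS into the range of IC. By group mean the order was Normal (14.7 TPM), IC (10.2 TPM), IS-HA (6.36 TPM) and IS (4.90 TPM), and the neighbours IC and IS-HA, and IS-HA and IS, overlapped. The log2 fold change against Normal was -0.57 (SE 0.38, adjusted p = 0.309) in IC, -1.56 (SE 0.39, adjusted p = 0.0077) in IS and -1.27 (SE 0.39, adjusted p = 0.0298) in IS-HA. Without IS-HA replicate 2 the value in IS-HA was -0.91 (adjusted p = 0.00704), under the fold cutoff. Without Normal replicate 3 the adjusted p of Axin2 was 0.0526 in IS and 0.155 in IS-HA, and without Normal replicate 1 it was 0.0284 and 0.0852.

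In IS against IC, Axin2 was the single gene of the 9 with an unadjusted p under 0.05 by edgeR's quasi-likelihood test (log2 fold change -0.99, SE 0.36), and its adjusted p was 0.175. By edgeR, 0.0% of all genes tested passed both cutoffs in this comparison (3498 genes at an unadjusted p under 0.05, 611 genes by DESeq2's Wald test), and 0 of the 9 passed by DESeq2 or limma. Over the alternatives the adjusted p of Axin2 ranged from 0.0212, without IS-HA replicate 2, to 0.518, without IC replicate 2, and the log2 fold change from -1.05 to -0.90. Counted over all 10 genes, IS and IC did not overlap in TPM for 2, Tead1 and Axin2, both lower in IS, where 33.4% of all genes tested did not overlap. In IS-HA against IS, the log2 fold change of Axin2 was 0.29 (SE 0.36, adjusted p = 0.816), and 0.65 (adjusted p = 0.0625) without IS-HA replicate 2.

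In IS-HA against IS, 0 of the 9 genes passed both cutoffs by edgeR, DESeq2 or limma, and 0 had an unadjusted p under 0.05 by edgeR, where 0.00635% of all genes tested (1 gene) passed. The groups did not overlap in TPM for 1 of the 10 genes, Ccn1, where 9.97% of all genes tested did not. Without IS-HA replicate 2, 0 of the 9 passed, where 3.03% of all genes tested (481 of 15897) did. The log2 fold changes then ranged from -1.04 for Ccn1 to 0.65 for Axin2, with adjusted p-values from 0.0625 to 0.872.

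**Figure D2:**
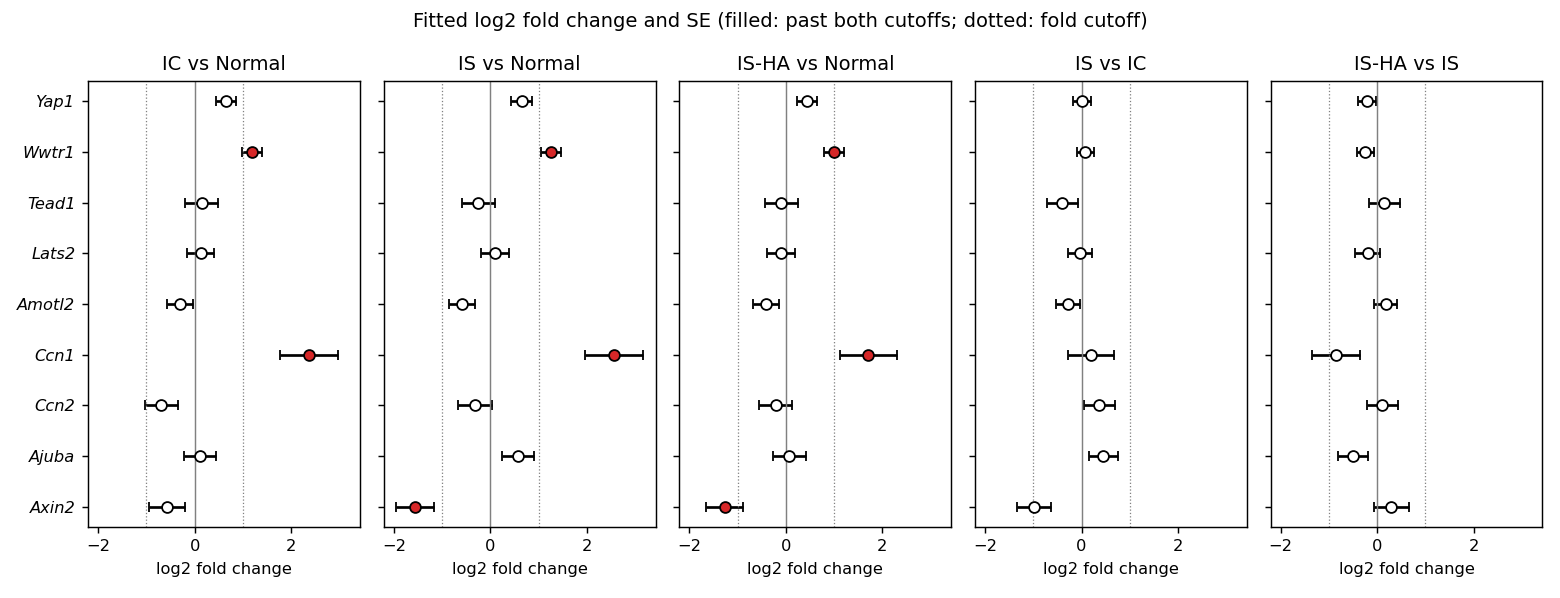
Log2 fold change from edgeR (x axis) of the 9 tested genes (y axis) in the 5 comparisons (panels), with bars of 1 SE. Filled points passed both cutoffs and dotted lines mark the fold cutoff at -1 and 1. Wwtr1 and Ccn1 are filled in all 3 panels against Normal, Axin2 in IS and IS-HA against Normal, and no point is filled in the panels between hemorrhage groups.

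Marker genes of several cell types also differed from Normal. In IS against Normal, 8 of 10 microglia and macrophage markers, 5 of 6 fibroblast markers and all 5 tested of 6 neutrophil markers rose, and 9 of 10 neuron markers and 3 of 6 oligodendrocyte markers fell. Of 9 astrocyte markers 1 rose and 2 fell, of 9 endothelial markers 1 rose and 1 fell, and of 8 mural cell markers 1 rose and 1 fell. Of all genes tested, 18.8% rose and 17.0% fell in this comparison. The summed level of the microglia and macrophage markers was 227 to 307 TPM in Normal, 1696 to 2326 TPM in IC, 2738 to 4149 TPM in IS and 2092 to 3346 TPM in IS-HA. That of the fibroblast markers was 63.0 to 79.0 TPM in Normal, 144 to 245 TPM in IC, 188 to 307 TPM in IS and 108 to 235 TPM in IS-HA. Both sums, and those of the astrocyte and neutrophil markers, were, like Wwtr1 and Ccn1, higher in every rat with hemorrhage than in the Normal rats.

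The astrocyte markers summed to 2924 to 2973 TPM in Normal, 6093 to 8359 TPM in IC, 3421 to 6040 TPM in IS and 4798 to 6454 TPM in IS-HA. This sum and the median of the list differ, since the log2 fold changes of its 9 genes had a median of 0.004 in IC, -0.54 in IS and -0.18 in IS-HA relative to Normal. Gfap, the filament gene of reactive astrocytes, which is named after its values were seen, was at 377 to 425 TPM in Normal and 2633 to 6048 TPM in the others. The other astrocyte markers summed to 2499 to 2595 TPM in Normal, 2311 to 2613 TPM in IC, 789 to 1980 TPM in IS and 1497 to 2529 TPM in IS-HA. The neuron markers, like Axin2, were lower in every rat with hemorrhage, at 7535 to 7737 TPM in Normal, 3051 to 6116 TPM in IC, 1509 to 3903 TPM in IS and 2279 to 4011 TPM in IS-HA. The oligodendrocyte markers behaved likewise, at 16890 to 17280 TPM in Normal, 9843 to 14230 TPM in IC, 5782 to 9847 TPM in IS and 8870 to 13640 TPM in IS-HA. The vascular sums moved less. The endothelial markers were at 172 to 220 TPM in Normal and 213 to 271 TPM in the rats with hemorrhage, and the mural cell markers were at 169 to 176 TPM in Normal and 90.5 to 178 TPM in the others. The neutrophil markers were at 4.91 to 5.04 TPM in Normal and 79.8 to 855 TPM in the others. Of the neutrophil markers, Mpo was listed at 0 in 9 rats and Elane at 0 in both Normal rats, and no other marker was at 0 in any rat. The part of these cell types in the results for Wwtr1, Ccn1 and Axin2 was not tested.

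**Figure D3:**
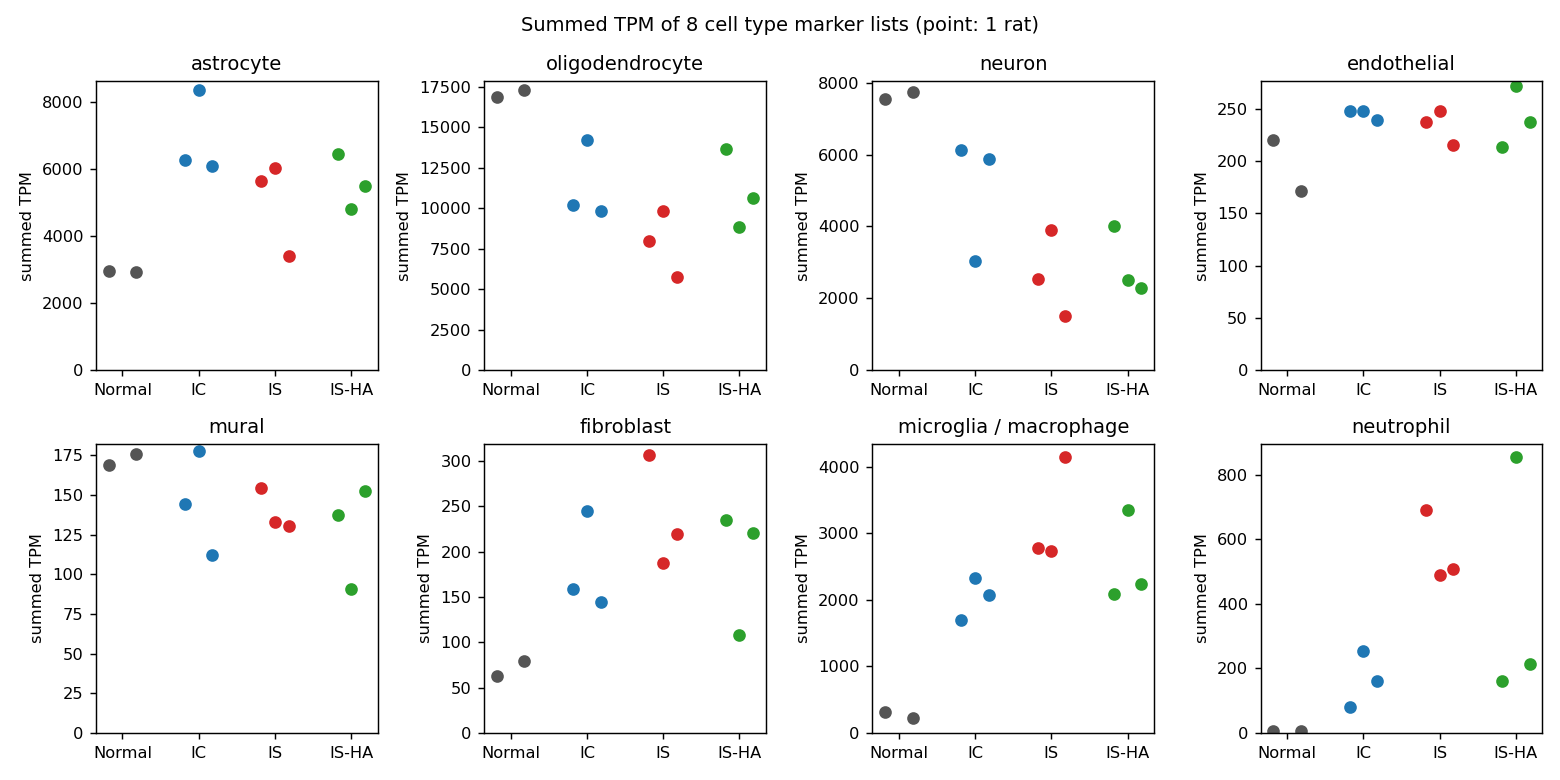
Summed TPM (y axis, from 0) of 8 lists of cell type markers in each of the 11 rats, by group (x axis). Points are rats. The microglia and macrophage, fibroblast, neutrophil and astrocyte sums are lowest in the 2 Normal rats, the neuron and oligodendrocyte sums are highest there, and the endothelial and mural sums differ less.

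The genes around these 10 were read from 4 lists of pathway genes. Of 17 Hippo kinases and upstream regulators, 4 rose and 4 fell in IS against Normal. Of all genes tested, 18.8% rose and 17.0% fell there. The list had a median log2 fold change of -0.55, against 0.02 for all genes tested. With lists this small, these counts and those of the lists below are not read as a property of a list. The adaptor genes of the LATS kinases parted: Mob1a rose, from 15.7 to 17.4 TPM in Normal to 52.5 to 70.4 TPM in IS (log2 fold change 1.86, SE 0.22), whereas its close relative Mob1b fell, from 9.54 to 18.8 TPM to 1.92 to 4.85 TPM (-2.23, SE 0.69). The kinase genes parted as well. Stk3, an upstream Hippo kinase, rose by 1.53 on the log2 scale (SE 0.26), and Taok1, a kinase that activates it, had a log2 fold change of -2.02 (SE 0.41). The adjusted p was 0.0208 for Mob1b and at most 0.00256 for Mob1a, Stk3 and Taok1. The call of Mob1b was lost without Normal replicate 3 (adjusted p = 0.145), without IS replicate 3 or 4, or by limma. The number of genes of this list that fell depended on single rats, at 1 without Normal replicate 3, and at 2 without Normal replicate 1, IS replicate 3 or IS replicate 4, as by limma, with 4 or 5 risen in each.

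Of 15 relatives of the 10 genes, 13 were tested, and in IS against Normal 4 rose and 0 fell by edgeR. These were Wtip (log2 fold change 2.17, SE 0.36) and Limd1 (1.31, SE 0.36), the LIM-protein relatives of Ajuba, and Tead3 (1.72, SE 0.32) and Tead2 (1.38, SE 0.45), the TEAD relatives of Tead1. Tead3 was at 2.01 to 2.85 TPM in Normal and 7.58 to 8.62 TPM in IS, and Tead2 at 1.23 to 1.67 TPM and 3.25 to 4.56 TPM. Tead2 and Limd1 did not pass without Normal replicate 1 or 3, which left 2 risen in each case. Tead2 also did not pass without IS replicate 4 (1.17, adjusted p = 0.076) or by limma (0.96, under the fold cutoff). At an unadjusted p under 0.05, 3 relatives were lower in IS by edgeR. DESeq2's Wald test called 2 lower, Amot and Ccn3, which are named here after their values were seen, and limma called 0. By edgeR, 1 was called lower without Normal replicate 1, and 2 without IS replicate 2 or IS-HA replicate 2. The median over the 13 was 0.42, and of all genes tested 18.8% rose and 17.0% fell in IS against Normal.

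Of 17 other genes of a conserved YAP and TAZ target signature, 6 rose and 2 fell in IS against Normal, with a median of 0.32. In IC 6 rose and 0 fell (median 0.40), and in IS-HA 6 rose and 1 fell (median -0.03, against 0.06 for all genes tested). Without Normal replicate 1 or 3, 3 rose in IC and 4 in IS-HA, and without IC replicate 3, 4 rose in IC. The 1 that fell in IS-HA did not pass without Normal replicate 3 or IS-HA replicate 2. Nor did it pass with library size alone or with the replicate number as a block. Of all genes tested, 18.8% rose and 17.0% fell in IS, 10.9% and 2.66% in IC, and 15.1% and 7.71% in IS-HA. Igfbp3, which encodes a binding protein of insulin-like growth factors, was at 1.99 to 2.75 TPM in Normal, 8.45 to 22.4 TPM in IC, 22.2 to 44.0 TPM in IS and 13.2 to 23.0 TPM in IS-HA. Its log2 fold change in IS was 3.81 (SE 0.52, adjusted p = 0.000318). Myof, a membrane repair protein gene, rose by 2.14 on the log2 scale (SE 0.44). Nuak2, a kinase gene, rose from 5.00 to 5.65 TPM in Normal to 16.8 to 23.4 TPM in IS (adjusted p = 0.000839). Rbms3, an RNA-binding protein gene, fell from 1.65 to 1.83 TPM in Normal to 0.226 to 0.604 TPM in IS (log2 fold change -2.08, SE 0.44). Nuak2, Wtip and Ccn1 are also in a target list of YAP1 that the study drew from these samples, which is not independent evidence of their direction. The TEAD motif was found in 2 of the 12 signature genes with a promoter entry.

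Axin2 was set beside 11 other Wnt feedback genes and targets, of which 2 rose and 3 fell in IS against Normal (median -0.55). Of all genes tested, 18.8% rose and 17.0% fell in this comparison. Znrf3 and Rnf43, which encode ligases that remove Wnt receptors, fell with Axin2. Znrf3 was at 11.4 to 21.7 TPM in Normal, 4.58 to 9.13 TPM in IC, 1.03 to 2.08 TPM in IS and 0.54 to 6.84 TPM in IS-HA, and its log2 fold change in IS was -3.32 (SE 0.63, adjusted p = 0.00189). Rnf43 had a log2 fold change of -1.42 (SE 0.25). Lgr5, a receptor of R-spondins, had -2.64 (SE 0.86), on 25 and 44 counts in Normal and 9, 1 and 0 counts in IS. The call of Lgr5 was lost without Normal replicate 3 (adjusted p = 0.146), IS replicate 3 (0.0868) or IS replicate 4 (0.0631), and its value ranged from -5.03 to -2.17 with each rat left out. Sp5, a transcription factor gene induced by Wnt, went the other way, at 0 and 0.251 TPM in Normal and 0.821 to 1.91 TPM in IS. Its fitted log2 fold change of 3.26 (SE 0.88) depends on the prior count, since Normal held 0 and 4 counts, and Sp5 did not pass without Normal replicate 1 (adjusted p = 0.0655). Apcdd1, the other gene of this list that rose, had a log2 fold change of 1.29 (SE 0.15, adjusted p = 0.000144). It is named after its value was seen.

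Between the hemorrhage groups, 0 of the 58 tested genes of the 4 lists passed both cutoffs by edgeR, in IS against IC as in IS-HA against IS. At an unadjusted p under 0.05 there were 15 and 11, where 3498 and 1408 of all 15742 genes tested were under it. DESeq2's Wald test called 3 in IS against IC, Igfbp3 (log2 fold change 1.26, adjusted p = 0.0433) and Ccn5 (1.72, adjusted p = 0.0434) higher in IS and Znrf3 (-1.98, adjusted p = 0.0236) lower, and 0 in IS-HA against IS. Ccn5, a relative of Ccn1 and Ccn2, is named after its value was seen. Limma called 0 in both comparisons. Without IS-HA replicate 2, edgeR called 5 of these genes in IS against IC, where 6.06% of all genes tested passed. Igfbp3 (log2 fold change 1.23, adjusted p = 0.0499) and Ccn5 (1.69, adjusted p = 0.0365) were then higher in IS, and Rbms3 (-1.41, adjusted p = 0.0388), Mob1b (-1.39, adjusted p = 0.0307) and Znrf3 (-1.97, adjusted p = 0.0208) lower. In IS-HA against IS it called 2, Mob1b (1.76, adjusted p = 0.038) and Znrf3 (1.71, adjusted p = 0.0376), both higher in IS-HA. By edgeR, list genes thus passed between hemorrhage groups only without that rat. It is in neither IS nor IC and enters their comparison through the shared fit. With only the IS and IC rats fitted, edgeR called 0 list genes. Igfbp3, Ccn5 and Znrf3 passed in IS against IC by DESeq2 with that rat kept. These calls therefore depend on the test as well as on that rat.

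**Figure D4:**
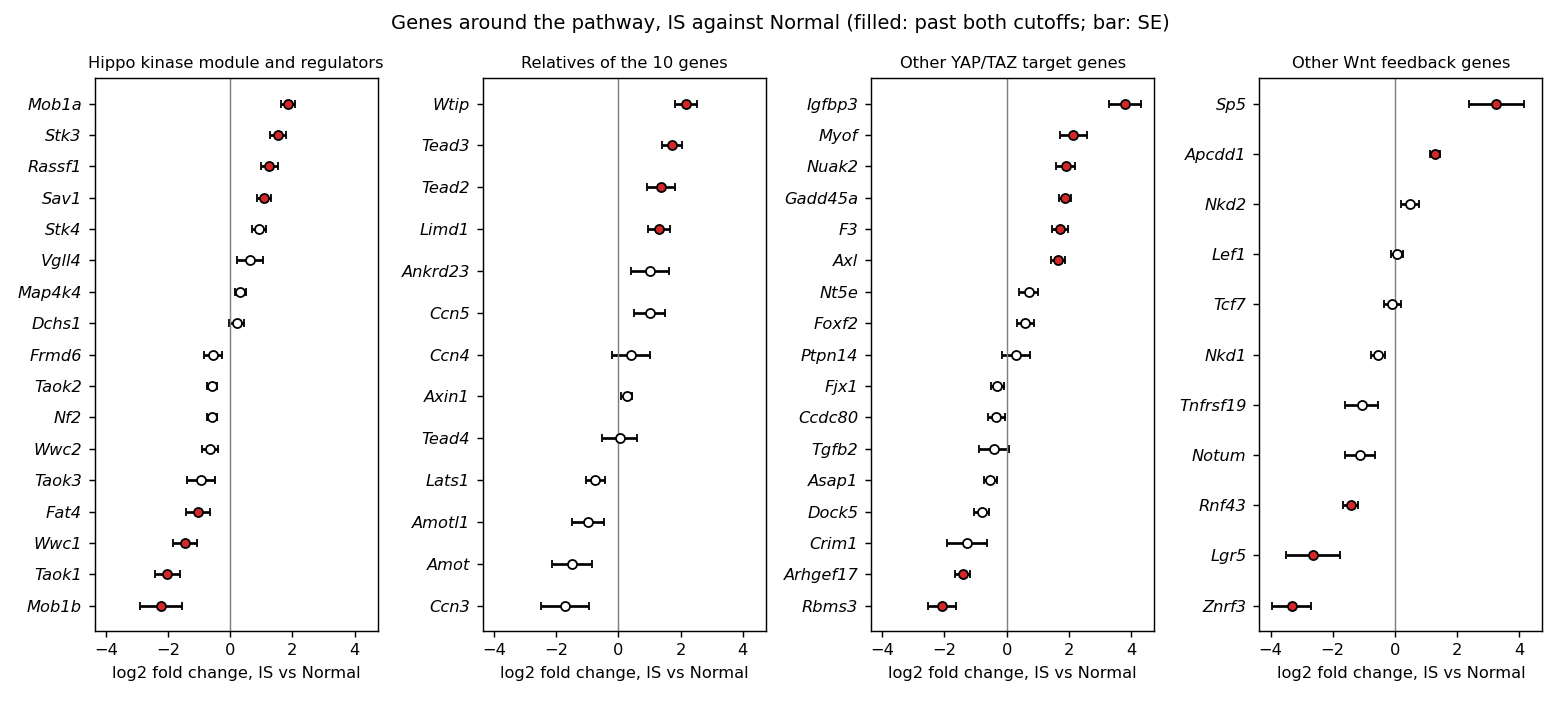
Log2 fold change in IS against Normal from edgeR (x axis) of the tested genes of the 4 lists (y axis, 1 panel per list, ordered by value), with bars of 1 SE. Filled points passed both cutoffs. The Hippo list has 4 filled points on each side, the relatives 4 on the right, the target genes 6 on the right and 2 on the left, and the Wnt genes 2 on the right and 3 on the left.

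The genes most like 4 of the 10 were read as the highest Pearson correlation of log2 CPM over the 9 rats with hemorrhage, outside the list. These rats share their group differences and library sizes, so r is a measure of likeness and was not tested. For Axin2 they were Adgrf5, an adhesion receptor gene of endothelial cells (r = 0.988), Greb1l (r = 0.987) and Zfp808l2 (r = 0.981), which stayed at 0.958 to 0.98 without IS-HA replicate 2. For Ccn1 they included Pipox (r = 0.987) and Ddx51 (r = 0.949). For Yap1 they were Msi1, an RNA-binding protein gene of glia and progenitors (r = 0.949), Upf1 (r = 0.949) and Metap2-ps1 (r = 0.945). The first 2 of these rested on IS-HA replicate 2, without which r was 0.686 and 0.671. For Ankrd1 they were Stk33, C18h18orf32 and Clba1 (r = 0.947 to 0.964), on 1 to 9 counts of Ankrd1 per rat.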

How the data were processed

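Poly(A) RNA of about 20 to 30 mg of ipsilateral striatum was sequenced by the authors as paired reads of 150 bases. The submitters' processing notes name the build mRatBN7.2 and the tools fastp 0.20.0, HISAT2 2.1.0, SAMtools 1.9 and featureCounts. Whether featureCounts used strand is not given in the sources used here, so reads of overlapping genes cannot be told apart. The deposited counts are whole numbers per gene without normalization, and TPM was computed by the authors from the same reads. Each column was matched to its rat by library name, and 0 columns were left unmatched. Counts were filtered with filterByExpr, scaled by TMM and fitted with edgeR 4.0.16 in R 4.3.3 over all 11 rats, after the scripts had been tested on simulated data. The cutoffs of the study's methods (adjusted p under 0.05, absolute log2 fold change of at least 1) were used in all 5 comparisons. The study also used a smaller fold cutoff for decreases in IS-HA against IS, where 0 of the 9 genes passed the adjusted p alone. Its DESeq2 (1.42.0 here) was an alternative, as was limma 3.58.1 on log2(TPM + 1). A floor of 3 counts covers counting error only.

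The 10 genes, the pathway lists and the marker lists were chosen with earlier results of these data known. From each pathway list the text names the 4 tested genes with the largest change in IS against Normal among those that passed there. Amot, Ccn3, Ccn5 and Apcdd1 are named beside these, after their values were seen. Marker genes are given by counts and sums, apart from Ppp1r1b, which was picked to check the tissue. The labels do not say more of a replicate than that it is a rat. The p-values set a group difference against the spread between rats, which the main fit shares over all groups. Motif letters were searched in the RefSeq promoter table of GRCr8, another build than that of the counts. For 4 of the 10 genes the text names the genes most like them, of which 1 is not reported here.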

Additional observations from a re-analysis of the deposited data

How the results depend on the processing

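No paired analysis was possible against Normal in IC and IS because these groups share a single replicate number with it. In the other 3 comparisons, r between rats that share a replicate number ranged from -0.506 to 0.394. This r cannot decide whether the numbers pair the rats. Each rat was set against the mean of 2 or 3 rats, which forces values of opposite sign within a group. For example, IS-HA replicate 1 gave -0.414 with Normal replicate 1 and 0.414 with Normal replicate 3. With the replicate number as a block, 0 of the genes passed in IS against IC, 0 in IS-HA against IS and 2 in IS-HA against Normal, where Axin2 was at -0.92 (adjusted p = 0.00138).

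Against Normal, 2 genes passed in IC in all 9 alternatives that kept every rat, and 0 to 2 with each rat left out, 1 without Normal replicate 1 and 0 without Normal replicate 3. In IS 3 or 4 passed with every rat, and 1 to 3 with each rat left out, 1 without Normal replicate 3. In IS-HA, where 3 passed, 0 passed by limma on log2(TPM + 1), 1 with only the groups compared, and 0 to 3 with each rat left out (0 without Normal replicate 3, and 1 without Normal replicate 1, IS replicate 3 or IS-HA replicate 2). Axin2 in IS-HA did not pass with library size alone (-1.12, adjusted p = 0.0624) or without IS-HA replicate 2 (-0.91, adjusted p = 0.00704), and in IS it did not pass without Normal replicate 3 (adjusted p = 0.0526). Between hemorrhage groups, 0 passed under every alternative. The causes were not tested.

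Values of genes that did not pass changed sign in places, most of them near 0. With library size alone these were Lats2 (0.0454) and Tead1 (0.0428) in IS-HA against Normal and Yap1 in IS against IC (-0.0020). With the replicate block they were Lats2 (0.15) and Tead1 (0.13) in IS-HA against Normal, and Amotl2 (-0.13), Axin2 (-0.12), Ccn2 (-0.43) and Tead1 (-0.11) in IS-HA against IS. In IS against IC, Yap1 was -0.0091 with no filter and -0.0673 by limma, and Wwtr1 was -0.0027 by limma. With each rat left out, the values against Normal ranged from -0.0318 to 0.2836 for Ajuba, -0.0678 to 0.2334 for Lats2 and -0.0793 to 0.4158 for Tead1 in IC, from -0.4768 to 0.0182 for Tead1 in IS, and from -0.0823 to 0.2437 for Ajuba, -0.2886 to 0.1522 for Lats2 and -0.3290 to 0.1662 for Tead1 in IS-HA. In IS against IC they ranged from -0.1499 to 1.0774 for Ccn1, -0.0247 to 0.5810 for Ccn2, -0.1430 to 0.1607 for Lats2, -0.0027 to 0.1923 for Wwtr1 and -0.0555 to 0.0828 for Yap1. In IS-HA against IS they ranged from -0.1045 to 0.6508 for Axin2, -0.2639 to 0.4730 for Ccn2, -0.3846 to 0.0585 for Lats2 and -0.0771 to 0.3489 for Tead1. Beside these, 47 values of called genes under an alternative, over the 9 genes and the 16 list genes named by size of change, no longer passed. The alternatives for the list genes were added after the data were seen.

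Over all genes, library size alone moved the median log2 fold change against Normal from 0.00, 0.02 and 0.06 to 0.14, 0.15 and 0.18 in IC, IS and IS-HA, and its calls split into 2045 higher and 211 lower in IC (1720 and 418 with TMM) and 2756 and 809 in IS-HA (2383 and 1213 with TMM). The count of called genes moved by more than 1.5 times in IS against IC, from 0 to 611 by DESeq2's Wald test and to 964 without IS-HA replicate 2, and in IS-HA against IS, from 1 to 63, 481 and, with the replicate block, 6. In IS-HA against Normal it was 2229 with only the groups compared. In IC against Normal it was 1250 without Normal replicate 1 and 1307 without IC replicate 3. Without Normal replicate 3 it fell from 2138 to 821 in IC, from 5633 to 3633 in IS and from 3596 to 1529 in IS-HA. Depth limits Ankrd1, Tead1 and Ajuba.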
